A study of Mus musculus with 8 samples.

Results

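Endothelial cells (ECs) line every vessel and control whether blood clots against them. The genes described here are 9 that set this balance at the endothelial surface: *Vwf*, *F8*, *F3*, *Thbd*, *Procr*, *Tfpi*, *Plat*, *Plau* and *Anxa2*. They were chosen by name with earlier results of these data known, 9 of the 49315 genes in the count files. Their Ensembl identifiers were matched to symbols. All 9 passed the filter on low counts, as did 16887 genes in all. Brain ECs of mouse pups at postnatal day 9 (P9) were measured by RNA sequencing of poly(A) RNA, 1 library per pup. The 4 mutant libraries carried the R26 GT-Map2k1-GFP/+ allele and the Tg-Cdh5CreER+/- transgene, and the 4 control libraries are labelled wild type. The mutant allele holds a *Map2k1* K57N cDNA, a constitutively active form of the kinase that activates ERK, behind a CAG promoter and a stop cassette at the *Rosa* locus. Cre under the *Cdh5* promoter removes that cassette in ECs after tamoxifen, which pups of both groups received at postnatal day 1 (P1). The model has limits that bear on every value. The cassette was removed in only a part of the ECs, the cDNA is overexpressed, and no control group expressed normal *Map2k1* from *Rosa*. Wild-type pups came from the same litters as mutant pups, but which libraries share a litter is not given. Descriptions of the controls by the study differ on whether they carried Cre.

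Clotting starts when tissue factor, the product of *F3*, meets its plasma partner, and it is amplified by thrombin. Von Willebrand factor (*Vwf*) tethers platelets and carries factor VIII (*F8*) in plasma. Resting ECs hold thrombin back through tissue factor pathway inhibitor (*Tfpi*) and through thrombomodulin (*Thbd*), which turns thrombin into an activator of protein C, while the endothelial protein C receptor (*Procr*) presents protein C to that complex. Fibrin is dissolved by plasmin, which tissue-type (*Plat*) and urokinase-type (*Plau*) plasminogen activators release from plasminogen. Annexin A2 (*Anxa2*), paired with S100A10, binds plasminogen and tissue-type activator at the cell surface. Brain endothelium is known for low thrombomodulin relative to other vascular beds.

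The libraries held between 24833373 and 34196955 counts on genes. *Map2k1*, whose reads include those of the transgene, had a log2 fold change of 3.18 (SE 0.13, adjusted p = 2.84e-07 by Benjamini and Hochberg (BH), edgeR quasi-likelihood F test), and the groups did not overlap. The cells were captured with beads against CD31, and the summed level of 10 EC markers was 12248 to 14840 CPM (counts scaled to a common library total) in mutant and 11524 to 13969 CPM in wild-type libraries. The near-equal sums hold markers that moved both ways: *Pecam1* (1.44-fold), *Cdh5* (2.15-fold) and *Emcn* (1.77-fold) were called higher, *Kdr*, *Tek* and *Cldn5* lower, and 4 of the 10 were not called. All 5 oligodendrocyte markers and all 6 red blood cell markers were called lower in mutant libraries, and so were 4 of 6 neuron markers. Over all genes tested, 22.9% were called lower. Among the neuron markers called, *Snap25* and *Neurod1* overlapped between the groups. *Rbfox3*, another neuron marker, was 2.27-fold higher without being called (adjusted p = 0.0514, edgeR). Some markers of vessel-associated cells were called higher, where 21.5% of all genes tested were. These were 2 of 6 for pericytes (*Abcc9* 3.43-fold, *Kcnj8* 1.76-fold), 1 of 4 for smooth muscle (*Tagln* 1.65-fold) and 2 of 5 for fibroblasts (*Lum* 1.59-fold, *Col1a1* 1.31-fold, with *Col3a1* lower). Other markers of these lists pointed lower without being called, among them *Acta2*, *Myh11*, *Cnn1* and *Rgs5* (log2 fold changes of -0.40, -0.39, -0.63 and -0.44). The summed levels of these 3 lists overlapped between the groups, and the part of such cells in the members' values was not tested. None of the 7 microglia and macrophage markers passed the test, but their sum differed widely within both groups, with the highest values in the libraries numbered 3 (314 CPM in mutant and 397 CPM in wild type, against 85.6 to 219 CPM and 103 to 154 CPM in the others). For these bulk libraries, fewer cells of a type and less RNA per cell cannot be told apart.

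In mutant ECs 7 of the 9 genes were called higher (*Vwf*, *F3*, *Procr*, *Tfpi*, *Plat*, *Plau* and *Anxa2*), *Thbd* was called lower, and *F8* did not pass the test. A gene is called at an adjusted p under 0.05, and 21.5% of all genes tested were called higher and 22.9% lower, 44.4% in all. With the further limit of a log2 fold change over 1, 4 of the 9 were higher (*Plau*, *Procr*, *Anxa2* and *Vwf*), against 5.9% of all genes, and 0 of the 9 were lower, against 8.05% of all genes. The median log2 fold change was 0.84 over the 9 genes and -0.02 over all genes tested. Mutant libraries lay wholly above wild-type libraries for 6 of the 9 genes and wholly below for *Thbd*, where 20.6% and 21.9% of all genes tested did so, 42.5% in all. These counts describe a list of genes picked by name with earlier results of these data known, and are no test of the list.

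**Figure D1:**
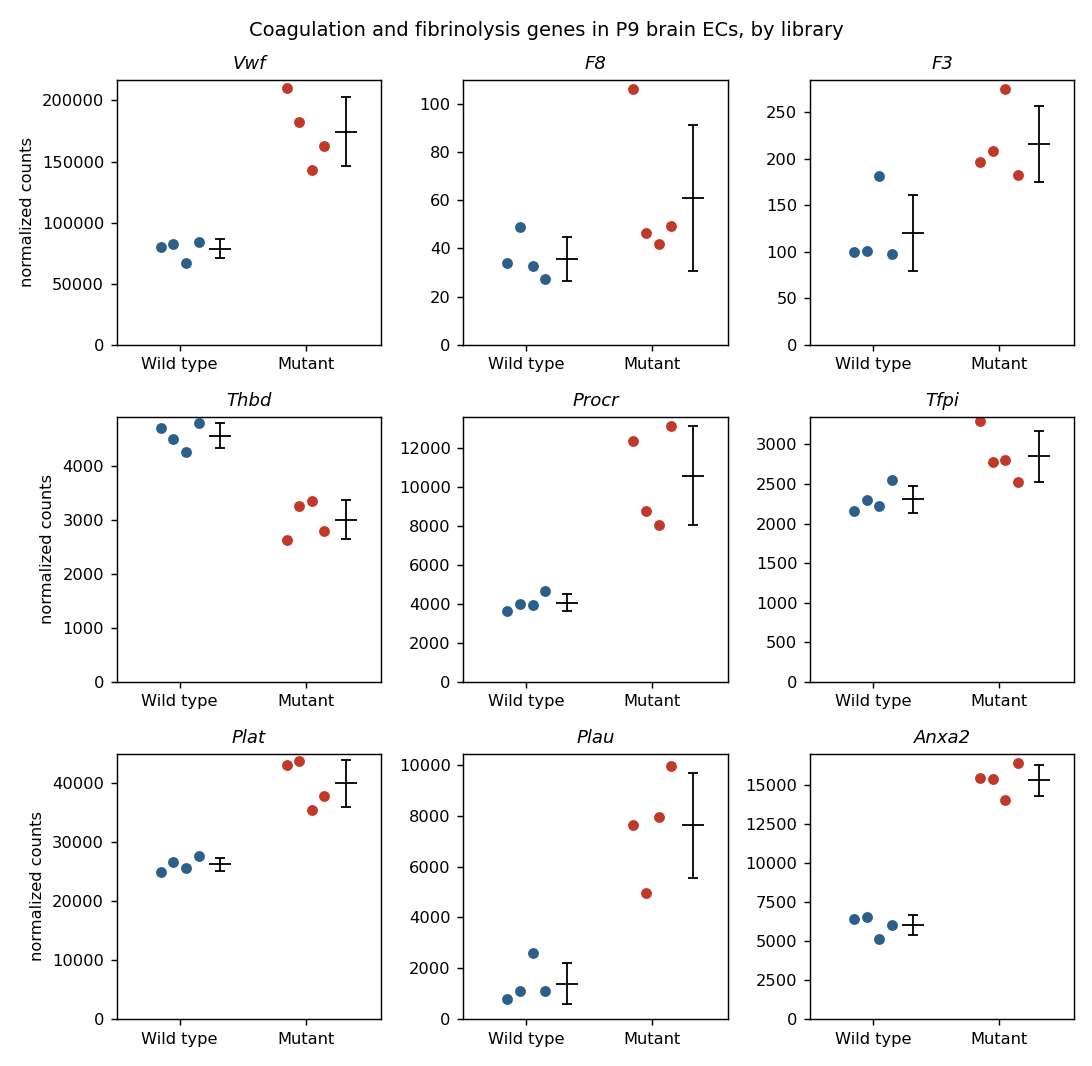
Normalized counts (scaled by TMM to the average library size, linear axes from 0) of the 9 genes in each library, with the mean and SD (n = 4) of each group beside the points. Mutant and wild-type points do not overlap for *Vwf*, *F3*, *Thbd*, *Procr*, *Plat*, *Plau* and *Anxa2*, and overlap for *F8* and *Tfpi*.

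Levels of different genes were compared per length, as RPKM, the CPM of a gene divided by its exon length in kilobases. In wild-type ECs the order was *Vwf* (165 ± 16.4 RPKM, SD, n = 4), *Plat* (142 ± 6.05), *Procr* (67.3 ± 7.17), *Anxa2* (54.7 ± 5.74), *Thbd* (41.3 ± 2.16), *Plau* (20.1 ± 11.7), *Tfpi* (14.3 ± 1.06), *F3* (1.6 ± 0.552) and *F8* (0.122 ± 0.0312). The ranges of *Vwf* and *Plat* overlapped there, as did those of *Plau* and *Tfpi*, and all other neighbours in the order were apart. In mutant ECs the order was *Vwf* (367 ± 59.9 RPKM), *Plat* (216 ± 21.6), *Procr* (176 ± 42.3), *Anxa2* (139 ± 9.01), *Plau* (110 ± 29.7), *Thbd* (27.2 ± 3.22), *Tfpi* (17.6 ± 1.97), *F3* (2.88 ± 0.549) and *F8* (0.208 ± 0.103). Neighbours from *Plat* to *Plau* overlapped in their ranges. *Plau* and *Thbd* were the pair that changed places: *Plau* was above *Thbd* in 4 of 4 mutant libraries and in 0 of 4 wild-type libraries. *F3* and *F8* were the lowest in both groups, and their values rest on 93 to 249 and 26 to 84 counts per library.

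Promoter sequences of *F3*, *Procr* and *Anxa2* are shown because these genes were called higher and their windows hold the motif TGANTCA. N stands for any base here, and the AP-1 forms bound by Fos and Jun proteins are TGACTCA and TGAGTCA. The motif was chosen after the sequences had been seen. It reads the same on both strands. RefSeq windows of 300 bases on GRCm38.p6, from 250 before to 50 after a gene's start, were matched for 5 of the 9 genes, and 3 of these held the motif. It was held by 9 of the 44 other coagulation and fibrinolysis genes with a window, which is 20.5%, and by 8.97% of the 27025 genes with a window. The *Tfpi* and *F8* windows do not hold these letters. The runs below end at the last base before the gene in the count files, 5′ to 3′ on the plus strand, with the motif in capitals. That of *F3* is chr3:121723287-121723536 and holds the motif at 146 to 140 (TGAATCA, not an AP-1 form) and at 135 to 129 bases before the gene. That of *Procr* is chr2:155750967-155751116, with the motif 54 to 48 bases before the gene. The *Anxa2* run is chr9:69453433-69453619, with the motif 32 to 26 bases before the gene. A match of letters is a description and not evidence of binding.
F3: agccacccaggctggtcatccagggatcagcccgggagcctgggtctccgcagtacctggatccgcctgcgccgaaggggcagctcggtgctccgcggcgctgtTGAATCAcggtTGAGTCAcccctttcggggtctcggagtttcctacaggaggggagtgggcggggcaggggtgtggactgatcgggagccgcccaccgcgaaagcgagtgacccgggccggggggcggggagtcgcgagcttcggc
Procr: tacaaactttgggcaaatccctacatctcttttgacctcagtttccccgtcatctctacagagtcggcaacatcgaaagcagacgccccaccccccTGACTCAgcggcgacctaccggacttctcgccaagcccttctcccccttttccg
Anxa2: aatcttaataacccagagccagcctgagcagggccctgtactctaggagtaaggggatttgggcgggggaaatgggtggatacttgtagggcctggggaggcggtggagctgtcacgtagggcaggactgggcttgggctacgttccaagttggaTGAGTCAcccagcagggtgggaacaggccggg

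*Vwf* (ENSMUSG00000001930, chromosome 6 of GRCm38 from 125546774 to 125686679, plus strand) took 0.242% to 0.285% of all counts in wild-type and 0.487% to 0.669% in mutant libraries, a share that also reflects its long transcript. Normalized counts, which are counts scaled by TMM to the average library size, were 209854, 182091, 142963 and 162961 in mutant libraries 1 to 4 and 80379, 82156, 67109 and 84395 in wild-type libraries 1 to 4. The lowest mutant library was well above the highest wild-type library. *Vwf* rose 2.22-fold, a log2 fold change of 1.15 (SE 0.13, BH-adjusted p = 7.42e-05, edgeR). *F8* (ENSMUSG00000031196, chromosome X from 75172715 to 75382615, minus strand), whose protein circulates bound to von Willebrand factor, had 106, 46.3, 42.0 and 49.5 normalized counts in mutant and 34, 48.8, 32.8 and 27.3 in wild-type libraries. Mutant library 1 stood apart from the other mutant libraries, and the groups overlapped. The log2 fold change of *F8* was 0.76, with a 95% confidence interval of 0.02 to 1.5 and an adjusted p of 0.0872 (edgeR). Without mutant replicate 1 it was 0.39. The value rests on 26 to 84 counts per library.

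Genes of von Willebrand factor storage and handling were described from a list of 9, of which 8 passed the filter. Of these, 4 were called higher and 1 lower, where 21.5% and 22.9% of all genes tested were. Their median log2 fold change was 0.39. ECs store von Willebrand factor in Weibel-Palade bodies together with P-selectin (*Selp*) and CD63. *Selp* had 5700, 4038, 3581 and 4710 normalized counts in mutant and 1354, 1952, 1543 and 2715 in wild-type libraries, a log2 fold change of 1.25 (SE 0.21, BH-adjusted p = 9.24e-04, edgeR). The groups did not overlap. *Cd63* rose from a mean of 1293 ± 533 to 3220 ± 940 normalized counts (SD, n = 4 each), a log2 fold change of 1.32 (adjusted p = 0.00297, edgeR), and wild-type library 3, at 2093, was far above the other wild-type libraries. *Mmrn1* encodes multimerin 1, a protein of platelets and ECs that binds factor V. Its level rose 4.24-fold from 1401 ± 155 to 5942 ± 923 normalized counts (SD, n = 4 each, adjusted p = 1.55e-06, edgeR). *Selp* and *Mmrn1* are also platelet genes. The summed level of 6 platelet markers was 13.9 to 22.8 CPM in mutant and 13.2 to 18.1 CPM in wild-type libraries, with overlap. None of the 5 platelet markers tested was called higher and *Ppbp* was called lower. *Pf4* (1.80-fold), *Itga2b* (1.23-fold), *Gp1ba* (1.20-fold) and *Gp9* (1.11-fold) lay higher without being called. The part of platelets in the values of *Selp* and *Mmrn1* was not tested.

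Factor V (*F5*), the cofactor with which factor Xa makes thrombin, went the other way. Its normalized counts were 139, 269, 358 and 237 in mutant and 1018, 1192, 961 and 936 in wild-type libraries. No mutant library came near the wild-type libraries. *F5* fell 4.08-fold, a log2 fold change of -2.03 (SE 0.23, BH-adjusted p = 8.03e-05, edgeR). It was the only call among the 5 of 15 coagulation factor genes that passed the filter, where 44.4% of all genes tested were called. The exons of *F5* and *Selp* both overlap *Gm16548* on the other strand, which had a mean of 29.6 normalized counts in mutant and 31.8 in wild-type libraries. The use of strand in the counting is not given in the sources used here.

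*F3* (ENSMUSG00000028128, chromosome 3 from 121723537 to 121735048, plus strand), the trigger of clotting, had 197, 208, 275 and 182 normalized counts in mutant and 100, 100, 182 and 97.8 in wild-type libraries. No wild-type library reached a mutant library, but the lowest mutant library and wild-type library 3 were nearly level. *F3* rose 1.79-fold, a log2 fold change of 0.84 (SE 0.23, BH-adjusted p = 0.0131, edgeR). Without wild-type replicate 3 the log2 fold change was 1.12. In the brain *F3* is best known from astrocytes. Of 7 astrocyte markers, *Gja1* was called higher and *Aldh1l1* lower, and *Gja1*, which ECs also express, took 96.3% of the summed level in mutant and 92.2% in wild-type libraries. The other 6 markers summed to 25 ± 12.2 CPM in mutant and 31.9 ± 9.84 CPM in wild-type libraries (SD, n = 4 each). This sum without *Gja1* was added once the data were known. The part of astrocytes in the *F3* values was not tested.

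*Tfpi* (ENSMUSG00000027082, chromosome 2 from 84432855 to 84476775, minus strand), which blocks tissue factor, had 3291, 2775, 2798 and 2532 normalized counts in mutant and 2155, 2297, 2222 and 2548 in wild-type libraries. Mutant library 4 lay just below wild-type library 4, so the groups overlapped. Its log2 fold change was 0.31 (SE 0.09, BH-adjusted p = 0.0183, edgeR), the smallest of the 9 genes. Without both libraries numbered 3, an alternative added once the data were known, the adjusted p was 0.0607 at a log2 fold change of 0.31. *Tfpi2*, a related inhibitor of plasmin and other proteases of the extracellular matrix, had a larger fold change. It had 922, 1054, 1020 and 1292 normalized counts in mutant and 160, 137, 218 and 227 in wild-type libraries, and rose 5.78-fold (log2 fold change 2.53, SE 0.17, BH-adjusted p = 4.98e-06, edgeR). Ratios to partner genes, here and for the other partners below, were chosen after the values were seen and were not tested. Per length, *Tfpi2* was 0.186 to 0.307 times the level of *Tfpi* in wild-type libraries and 0.876 to 1.6 times in mutant libraries. Of the 6 of 11 coagulation inhibitor genes tested, 2 were called higher and 0 lower, against 21.5% and 22.9% of all genes tested.

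Both receptors of the protein C pathway were called, in opposite directions. *Thbd* (ENSMUSG00000074743, chromosome 2 from 148404466 to 148408188, minus strand) had 2618, 3258, 3346 and 2784 normalized counts in mutant and 4693, 4494, 4249 and 4786 in wild-type libraries. All mutant libraries were below all wild-type libraries. *Thbd* fell 1.52-fold, a log2 fold change of -0.60 (SE 0.09, BH-adjusted p = 4.20e-04, edgeR). *Procr* (ENSMUSG00000027611, chromosome 2 from 155751117 to 155755471, plus strand) had 12381, 8740, 8061 and 13120 normalized counts in mutant and 3617, 4005, 3932 and 4645 in wild-type libraries. Here every mutant library was above the wild-type range, and mutant libraries 1 and 4 were higher than 2 and 3. *Procr* rose 2.61-fold, a log2 fold change of 1.38 (SE 0.16, BH-adjusted p = 9.50e-05, edgeR). Protein C itself (*Proc*) did not pass the filter, and protein S (*Pros1*), its cofactor, had a log2 fold change of 0.28 (adjusted p = 0.0202, edgeR).

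Ratios of members within a library do not depend on the scaling between libraries, and 4 were compared. Per length, the ratio of *Thbd* to *Procr* was 0.115, 0.203, 0.226 and 0.116 in mutant libraries and 0.708, 0.612, 0.590 and 0.562 in wild-type libraries. The groups did not overlap, and their mean log2 ratios differed by -1.97 (exact two-sided permutation test, p = 0.0286, adjusted p = 0.0571 over the 4 ratios). The ratio of *Plau* to *Plat* was 0.473, 0.302, 0.596 and 0.702 in mutant and 0.0849, 0.110, 0.269 and 0.105 in wild-type libraries. Every mutant library was again outside the wild-type range, with a difference of 1.96 on the log2 scale (exact two-sided permutation test, p = 0.0286, adjusted p = 0.0571). A p of 0.0286 is the smallest that 4 against 4 libraries allow, so neither ratio passed the threshold after adjustment. For *F3* to *Tfpi* the groups overlapped and the difference was 0.58 (exact permutation test, p = 0.114, adjusted p = 0.152). The ratio of *Vwf* to *F8* overlapped too, with a difference of 0.45 (exact permutation test, p = 0.171, adjusted p = 0.171), and rests on the few *F8* counts.

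**Figure D2:**
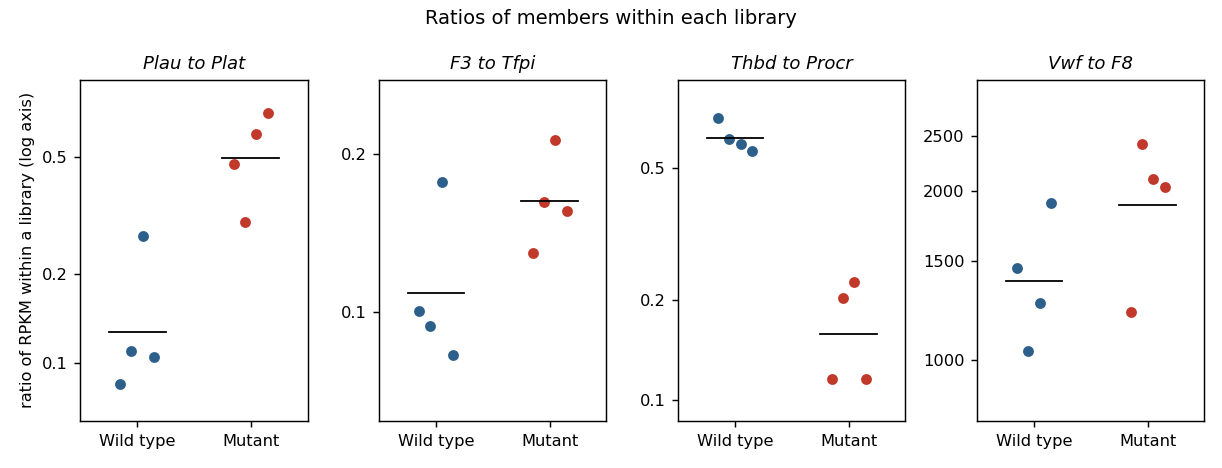
Ratio of the RPKM of 2 members within each library, on log axes, with a bar at the geometric mean of each group (n = 4). Mutant libraries lie above the wild-type range for *Plau* to *Plat* and below it for *Thbd* to *Procr*, and the groups overlap for *F3* to *Tfpi* and *Vwf* to *F8*.

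Thrombin signals to cells through protease-activated receptors, and all 4 genes of this family passed the filter. Of these, 3 were called higher and 1 lower, against 21.5% and 22.9% of all genes tested. *F2r*, which encodes PAR1, the main thrombin receptor of ECs, had 6699, 5926, 4984 and 5799 normalized counts in mutant and 1702, 1734, 1862 and 1756 in wild-type libraries. It rose 3.32-fold (log2 fold change 1.73, SE 0.09, BH-adjusted p = 8.33e-07, edgeR). *F2rl3*, which encodes PAR4, had 1215, 864, 777 and 1161 normalized counts in mutant and 68.0, 56.3, 71.6 and 62.1 in wild-type libraries. Its 15.5-fold rise (log2 fold change 3.96, SE 0.17, BH-adjusted p = 3.53e-07, edgeR) was the largest among the 9 members and the other pathway genes tested. *F2rl1*, which encodes PAR2, a receptor for trypsin-like proteases and the tissue factor complex rather than thrombin, fell 2.73-fold from 211 ± 32.3 to 77.5 ± 10.5 normalized counts (SD, n = 4 each; adjusted p = 8.82e-05, edgeR). *F2rl2* (PAR3) was below the level set for named genes, with at most 7 counts in any wild-type library and 28 to 56 counts in mutant libraries, and is named here because it completes the family. Per length, PAR1 remained the most abundant of the 4, at 59.8 RPKM in mutant ECs, against 17.0 RPKM for PAR4. The part of platelets in the values of these receptors was not tested.

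*Plat* (ENSMUSG00000031538, chromosome 8 from 22757727 to 22782844, plus strand), the activator that works on fibrin, had 42962, 43671, 35464 and 37786 normalized counts in mutant and 24984, 26593, 25621 and 27535 in wild-type libraries. The groups were apart. *Plat* rose 1.53-fold, a log2 fold change of 0.61 (SE 0.09, BH-adjusted p = 3.16e-04, edgeR). *Plau* (ENSMUSG00000021822, chromosome 14 from 20836662 to 20843388, plus strand), the activator that works at the cell surface on its receptor, had 7631, 4946, 7935 and 9965 normalized counts in mutant and 797, 1100, 2585 and 1082 in wild-type libraries. All mutant libraries were above wild-type library 3, which itself stood above the other wild-type libraries. *Plau* rose 5.47-fold, a log2 fold change of 2.45 (SE 0.35, BH-adjusted p = 3.34e-04, edgeR), the largest change of the 9 genes. Microglia and macrophages also express *Plau*, and the libraries numbered 3 had the highest marker sums for these cells, whose part in the values was not tested. With both of these libraries left out, an alternative added once the data were known, the log2 fold change was 2.93.

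*Anxa2* (ENSMUSG00000032231, chromosome 9 from 69453620 to 69491795, plus strand) had 15478, 15392, 14031 and 16451 normalized counts in mutant and 6393, 6560, 5140 and 6063 in wild-type libraries. The spread within each group was small beside the gap between them. *Anxa2* rose 2.54-fold, a log2 fold change of 1.34 (SE 0.09, BH-adjusted p = 4.77e-06, edgeR), the smallest adjusted p of the 9 genes. Its exons overlap *Gm16144* on the other strand, with means of 106 and 50.2 normalized counts in mutant and wild-type libraries. *S100a10*, whose protein pairs with annexin A2 and carries the site that binds plasminogen, had 1819, 1553, 1813 and 2424 normalized counts in mutant and 217, 194, 216 and 242 in wild-type libraries. It rose 8.77-fold (log2 fold change 3.13, SE 0.14, BH-adjusted p = 3.89e-07, edgeR). Per length, *S100a10* was 0.0911 to 0.129 times the level of *Anxa2* in wild-type libraries and 0.311 to 0.454 times in mutant libraries.

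Other genes of plasminogen activation were called in both directions. *Plaur*, which encodes the urokinase receptor, had 10406, 9999, 11239 and 12304 normalized counts in mutant and 5333, 5667, 7329 and 6736 in wild-type libraries, a log2 fold change of 0.81 (SE 0.11, BH-adjusted p = 2.75e-04, edgeR). Per length, *Plaur* was 2.54 to 5.99 times the level of *Plau* in wild-type libraries and 1.11 to 1.81 times in mutant libraries. *Plgrkt*, a plasminogen receptor of another kind, fell 2.17-fold from 596 ± 25.9 to 274 ± 35.3 normalized counts (SD, n = 4 each; adjusted p = 3.60e-05, edgeR). *Plg*, the plasminogen gene, which is expressed in liver, had 5 counts in mutant library 4 and 0 in the other libraries. Of the 7 of 10 fibrinolysis genes tested, 3 were called higher and 1 lower, against 21.5% and 22.9% of all genes tested.

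**Figure D3:**
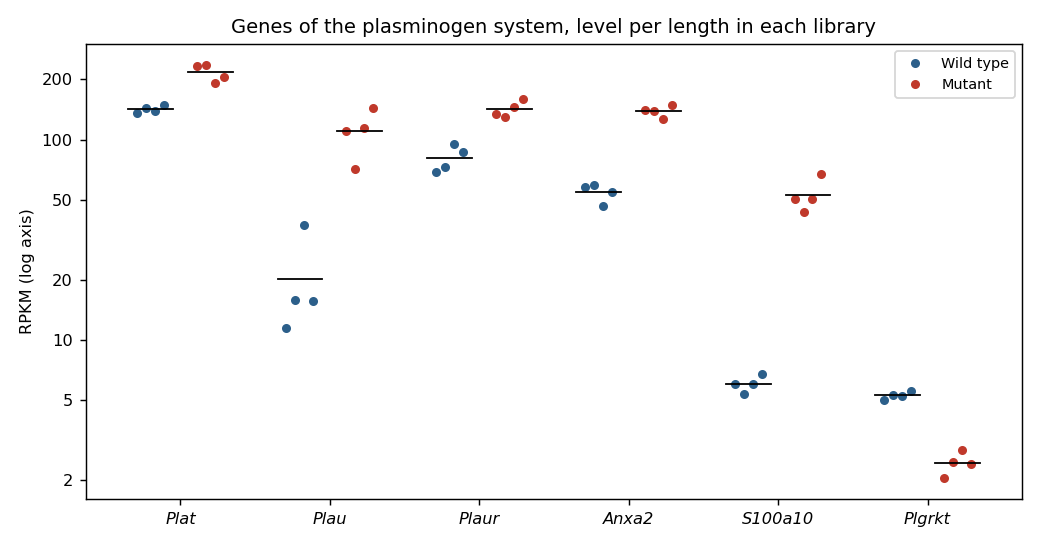
RPKM (log axis) of genes of plasminogen activation in each library, with a bar at the mean of each group (n = 4). All genes shown lie higher in mutant libraries except *Plgrkt*, and the gap is widest for *S100a10* and *Plau*.

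Over all 54 other coagulation and fibrinolysis genes, 35 passed the filter, of which 14 were called higher, 5 lower and 16 not called, where 21.5% and 22.9% of all genes tested were called higher and lower. Past the limit of 1 on the log2 scale, 9 were higher and 3 lower, against 5.9% and 8.05% of all genes. The median log2 fold change was 0.22, against -0.02 over all genes tested. These lists were also chosen with earlier results of these data known, so the counts are no test of them. The 16 genes not called had log2 fold changes between -0.47 and 0.76, among them *Serpine2*, *Lrp1*, *Stxbp5*, *Unc13d*, *Ggcx* and *Vkorc1*. The 19 genes that did not pass the filter had at most 19 counts in any library, and include the fibrinogen genes *Fga*, *Fgb* and *Fgg*. In the list of the vitamin K cycle and factor secretion, 5 genes were tested. *Lman1* and *Mcfd2*, whose proteins together carry factors V and VIII out of the endoplasmic reticulum, had log2 fold changes of 0.27 (adjusted p = 0.0141) and -0.70 (adjusted p = 4.33e-04, edgeR).

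**Figure D4:**
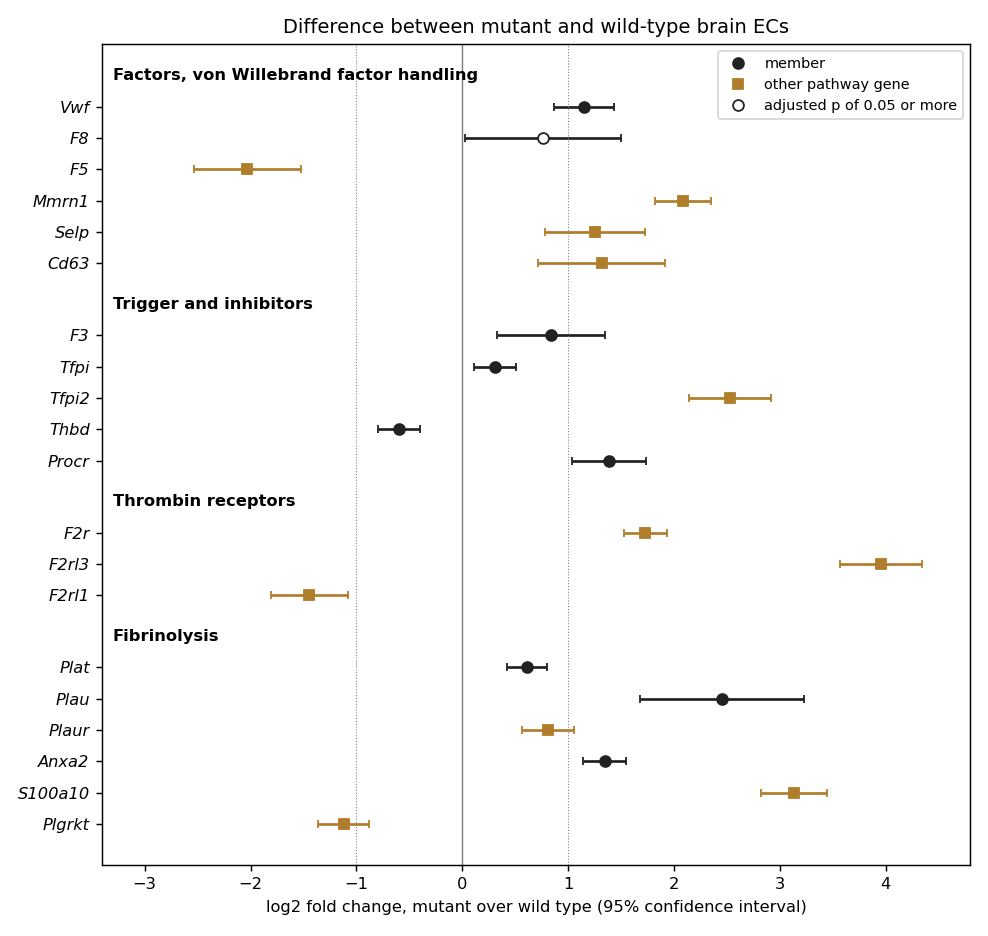
Log2 fold change of mutant over wild-type ECs with its 95% confidence interval, for the 9 members (circles) and the named genes of the wider pathway (squares), grouped by role. Filled symbols passed the test, dotted lines mark -1 and 1, and *F8* is the only open symbol.

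The sample descriptions begin with 3 different prefixes, each shared by libraries of both groups, and what they stand for is not given. Replicates 1 and 2 of both groups share a prefix, and replicates 3 and 4 have prefixes of their own. The direction of the difference was the same within every prefix for 8 of the 9 genes. The share of all genes tested for which this holds was not counted. *Tfpi* was the exception, with log2 differences of 0.45 (replicates 1 and 2), 0.33 (replicate 3) and -0.01 (replicate 4). For *Plau* these differences were 2.73, 1.62 and 3.20, and for *Thbd* -0.64, -0.34 and -0.78. The ratio of *F3* to *Tfpi* differed by 0.57, 0.26 and 0.91 on the log2 scale, and the groups overlap as a whole. The difference in the *Plau* to *Plat* ratio was 1.97, 1.15 and 2.75, that in *Thbd* to *Procr* -2.10, -1.38 and -2.28, and that in *Vwf* to *F8* 0.48, 0.73 and 0.09. A prefix with 1 library per group gives no test of its own.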

How the data were processed

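Brain ECs of 4 mutant and 4 wild-type pups gave 1 RNA sequencing library each, and groups were taken from the sample titles. The authors used Trimmomatic for trimming and STAR for mapping to GRCm38, and deposited whole-number counts per gene without normalization. The counting program, annotation release and use of strand are not given in the sources used here. A deposited set of DESeq2-normalized values was not used. Of 49315 gene identifiers, 48970 matched a symbol.

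Tests used edgeR 4.0.16 under R 4.3.3 (TMM scaling, filterByExpr with a minimum count of 10, glmQLFit and glmQLFTest, no covariate), with Benjamini-Hochberg adjustment over 16887 genes. Standard errors are the log2 fold change over the square root of F. Normalized counts are scaled by TMM to the average library size, and RPKM uses the exon length in the count files. Ratios and marker sums were tested by exact two-sided permutation. Libraries of 1 group differed by more than sampling noise (chi-square per degree of freedom 7.25 to 41.6), so the spread between pups limits precision except for genes of few counts. Scripts were tested on simulated counts.

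Members and lists were chosen with earlier results of these data known. The named genes are the 9 members, direct partners of members (*Plaur*, *S100a10*, *Plg* and *F2r*), and every other listed pathway gene with an adjusted p under 0.05, an absolute log2 fold change over 1 and 100 or more normalized counts on average where it was higher. A further gene that the rule chose is counted in the lists but not reported here. Other genes named were chosen after their values were seen. Alternatives were DESeq2 1.42.0, RLE scaling, no filter, blocks, CPM without TMM, ratios without length and each library left out.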

Additional observations from a re-analysis of the deposited data

Results flagged for a closer look

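In 5 of the 70 groups of 4 libraries examined, a library stood apart from the others of its group by more than Dixon's 95% critical value for the gap over the range, where chance flags about 1 in 20 groups. In wild-type library 3, *F3* had 182 normalized counts against 97.8 to 100 in the other wild-type libraries, *Plau* had 2585 against 797 to 1100, and *Cd63* had 2093 against 1005 to 1054. The ratio of *Plau* to *Plat* was 0.269 in that library and 0.0849 to 0.110 in the others. Wild-type library 3 also had the highest summed level of microglia and macrophage markers, 397 CPM. The part of that level in these values was not tested. In mutant library 1, *F8* had 106 normalized counts against 42.0 to 49.5 in the other mutant libraries.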

How the results depend on the processing

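The counts of called members (7 higher, 1 lower) were the same under DESeq2, RLE scaling, no filter on low counts, the replicate block, the description prefix block and each library left out. They fell to 6 higher without both libraries numbered 3, where *Tfpi* (0.31) lost its call. The replicate block gave 16 higher and 5 lower pathway genes and the prefix block 17 and 5, against 14 and 5. Calls over all genes tested rose as well, from 3631 higher and 3873 lower to 3973 and 4189 with the replicate block. With the prefix block they were 4182 and 4428. Same-numbered libraries of the groups correlated at 0.20, 0.21, 0.29 and 0.02 in their deviations from the group means, 3 of 4 above 0.1. Differently numbered libraries correlated at -0.36 to 0.38, the highest value of all being that of mutant library 4 with wild-type library 3. Some of these share a prefix: mutant library 1 with wild-type library 2 (0.17) and mutant library 2 with wild-type library 1 (0.25). Same-numbered libraries were not treated as pairs, since the labels do not say which libraries share a litter. With each library left out, log2 fold changes lay between 1.08 and 1.24 for *Vwf*, 0.71 and 1.12 for *F3*, -0.65 and -0.52 for *Thbd*, 1.29 and 1.5 for *Procr*, 0.25 and 0.38 for *Tfpi*, 0.57 and 0.67 for *Plat*, 2.27 and 2.94 for *Plau*, 1.28 and 1.39 for *Anxa2* and 0.39 and 0.94 for *F8*. The log2 ratio differences lay between 1.76 and 2.32 for *Plau* to *Plat*, -2.14 and -1.82 for *Thbd* to *Procr*, and 0.45 and 0.81 for *F3* to *Tfpi*. These 3 had an adjusted p of 0.0381 (exact permutation test) without wild type replicate 3, the library flagged above as standing apart. With it left out *F3* to *Tfpi* also reached the smallest p possible, which by itself lowers the adjusted p of *Plau* to *Plat* and *Thbd* to *Procr*. Log2 ratios of summed markers turned in sign with a library left out for ECs (-0.0385 to 0.0774) and microglia and macrophages (-0.49 to 0.56), without TMM for ECs (-0.0376), and without *Gja1* for astrocytes (-0.35), and none of these sums passed the test. *F3* and *F8* are limited by few counts.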
